A study of Mus musculus with 2 samples.

Results

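The complement system is a cascade of plasma proteins, most of them made by hepatocytes, that tags microbes and dying cells, attracts leukocytes and punches pores into membranes. It starts through C1 on antibody complexes, through lectins on foreign sugars, or through the alternative pathway. All routes meet at C3, and cleavage of C5 then starts the assembly of C6, C7, C8 and C9 into the membrane attack complex. Regulators keep the cascade off the body's own cells, and receptors on myeloid cells sense its fragments. C1q is an exception among the plasma components, being made mainly by macrophages, which in liver include the resident Kupffer cells.

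A list of 33 complement genes was followed through 2 liver arrays. Members were found by probe sets that the platform annotation pairs with exactly 1 gene symbol, and 30 of the 33 had such a probe set, out of 22180 genes measured this way. The 30 had 1 probe set each. The probe set that names Masp2 also names Tardbp, and C3 and Cfd had no probe set under their own symbol in the annotation used, so these 3 are not reported by gene. One array held pooled liver RNA of male E4bp4-LKO mice, which the study calls deficient in E4bp4, and the other held pooled liver RNA of male WT mice. Mice of both genotypes were 2 months old when a high-fat diet began, and ate it for 12 weeks. E4BP4 (gene symbol Nfil3) is a transcriptional repressor of the basic leucine zipper family. The labels do not say how the deletion was made, which strain was used, how many mice were pooled or at what hour liver was taken.

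All values are log2 intensities after RMA, and each difference is E4bp4-LKO minus WT. Each genotype has 1 array of pooled RNA and no replicate. No difference therefore has an error or a test, and the number of arrays limits the precision. The median of all genes' mean over both arrays (4.20) served as a floor, which 11090 genes passed. Of these, 3.57% differed by at least 1.5-fold (0.58 on the log2 scale) in either direction, 1.51% being higher and 2.06% lower in E4bp4-LKO. The central 95% of their differences ran from -0.54 to 0.49. The differences of single probe sets had a within-gene standard deviation of 0.22, taken over 555 genes with 2 probe sets. This standard deviation is called the disagreement between probe sets below. The targeted gene Nfil3 had 4.47 on the E4bp4-LKO array and 5.94 on the WT array. Hepatocyte markers were present, all 11 measured ones above the floor, with a median difference of 0.08. The skeletal muscle markers were lower in E4bp4-LKO, 6 of 7 above the floor by at least 1.5-fold. Of these 6, Myh1 and Myh4 had E4bp4-LKO values below the floor. Of 5 squamous epithelium markers above the floor, 3 were higher by at least 1.5-fold (Krt4, Krt13 and Krtdap) and 2 lower (Sprr1a and Ly6d). Krt4, Krt13 and Krtdap passed the floor only through their E4bp4-LKO values, so the sizes of their differences are uncertain. Endothelial markers had a median of -0.29, with 7 of 8 below 0. The part of such cells in the values of the complement genes was not tested.

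Most complement genes of the liver differed little between the pools. C4a (1.66) and C8b (0.93), the gene of the C8 beta chain, were the members past 1.5-fold, both higher in E4bp4-LKO. Next in size above the floor were C3ar1 (-0.45), a receptor gene, and Mbl1 (0.39), C8a (0.38), C9 (0.33) and C8g (0.32), all within the central 95% of all genes above it. Above the floor were 28 of the 30 measured members. At least 1.5-fold higher were 2 of them, C4a and C8b, against 1.51% of all genes, and none was lower by as much, against 2.06% of all genes. C4a passed the floor only through its E4bp4-LKO value, its WT value being below it, so C8b is the single member of this count with both values above the floor. The median difference of the 28 was 0.09, against -0.02 for all genes above the floor. A difference above 0 was seen for 18 of the 28, and for 45.5% of all genes. At a threshold of 1.2-fold, 6 members were higher (C4a, C8b, C8a, C8g, C9 and Mbl1), against 10.6% of all genes, and 1 was lower (C3ar1), against 12.7%. The plot of levels on both arrays shows most members with overlapping points.

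**Figure D1:**
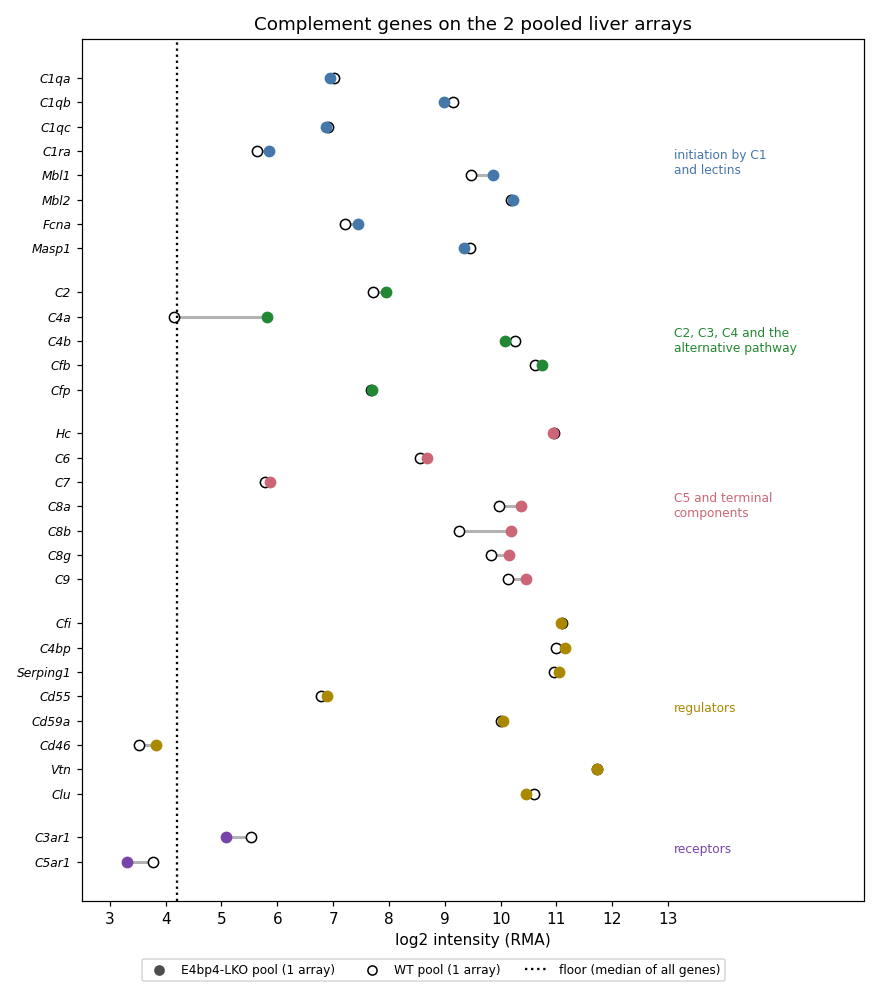
Log2 intensity (RMA) of the 30 measured complement genes, grouped by role, on the E4bp4-LKO array (filled points) and on the WT array (open points), 1 pooled array each. The dotted line is the floor at 4.20. C4a is at 5.81 against 4.15 and C8b at 10.18 against 9.25, while most other pairs of points touch.

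Of the genes that start the cascade, none differed by 1.5-fold. The 8 measured ones had a median difference of 0.01, with 4 above 0 and 4 below. That median has no firm sign, being -0.01 when the shared Masp2 and Tardbp probe set was counted and -0.03 with the floor moved up to the 75th percentile. Mbl1, a mannose-binding lectin that recognises microbial sugars, had 9.87 on the E4bp4-LKO array and 9.48 on the WT array, a difference of 0.39. Its paralog Mbl2 had 10.23 in E4bp4-LKO and 10.18 in WT, a difference of 0.05. The larger difference of the 2 mannose-binding lectins thus stayed inside the central 95% of all genes.

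Fcna, a ficolin that also binds sugars and is known from mouse macrophages, had 7.44 in E4bp4-LKO and 7.21 in WT, a difference of 0.23. C1ra, the protease that activates C1s within the C1 complex, had 5.85 in E4bp4-LKO and 5.63 in WT, likewise 0.23 apart. Masp1, a protease of the lectin pathway, was slightly lower, at 9.34 in E4bp4-LKO and 9.46 in WT. The probe set shared by Masp2, the lectin pathway protease that cleaves C4 and C2, and the unrelated gene Tardbp had 10.52 in E4bp4-LKO and 10.54 in WT.

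The 3 chains of C1q, the recognition part of C1, were close to 0. C1qa had 6.94 in E4bp4-LKO and 7.01 in WT. C1qb had 8.99 in E4bp4-LKO and 9.16 in WT. C1qc had 6.87 in E4bp4-LKO and 6.90 in WT. All 3 differences were negative, between -0.17 and -0.03, and all 3 were smaller in size than the disagreement between probe sets of the same gene. The genes of these chains lie next to each other on chromosome 4 with no protein-coding gene between them. In bulk tissue, fewer cells of a type and less RNA per cell cannot be told apart, which applies here and to every macrophage gene.

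Macrophage markers moved in both directions beside C1q. Of 16 Kupffer cell and macrophage markers, 15 were above the floor, 10 of these above 0 and 5 below, with a median difference of 0.12 and none past 1.5-fold. Their mean level was 7.50 in E4bp4-LKO and 7.44 in WT. The Kupffer cell markers Clec4f (0.17), Timd4 (0.35), Marco (0.32) and Cd163 (0.46) were on the higher side. Lyz2 (0.40), of the same list, was higher too. Cx3cr1 (-0.56), Cd68 (-0.43) and Adgre1 (-0.27) were on the lower side. Of the lipid-associated macrophage markers, which belong to macrophages of fatty liver, all 6 measured ones were lower in E4bp4-LKO and 3 of them (Gpnmb, Mmp12 and Trem2) by at least 1.5-fold. The mean level of the 6 was 4.85 in E4bp4-LKO and 5.70 in WT. The marker lists used here were written with earlier results of these arrays known.

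The receptor genes among the members, C3ar1 and C5ar1, were lower in E4bp4-LKO, each by less than 1.5-fold. C3ar1, the receptor for the anaphylatoxin C3a, had 5.09 in E4bp4-LKO and 5.54 in WT, a difference of -0.45 or 1.37-fold. C5ar1, the receptor for C5a, had 3.31 in E4bp4-LKO and 3.78 in WT, a difference of -0.46, but both values were below the floor. C3ar1 was thus the member with the lowest difference above the floor, at rank 454 from the lowest of the 11090 genes.

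The other receptor genes above the floor did not all point the same way. Itgax, a chain of complement receptor 4, had 3.97 in E4bp4-LKO and 4.52 in WT, the E4bp4-LKO value being below the floor. Itgam, a chain of complement receptor 3, differed by -0.24 and Itgb2, the chain both receptors share, by -0.26. C5ar2, the second C5a receptor, had 7.31 in E4bp4-LKO and 7.38 in WT. Vsig4, the complement receptor of resident macrophages, went the other way, with 8.74 in E4bp4-LKO and 8.45 in WT, a difference of 0.30. Of 8 neutrophil markers, whose cells also carry several of these receptors, 7 were below the floor, and Csf3r, the one above it, differed by -0.21.

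**Figure D2:**
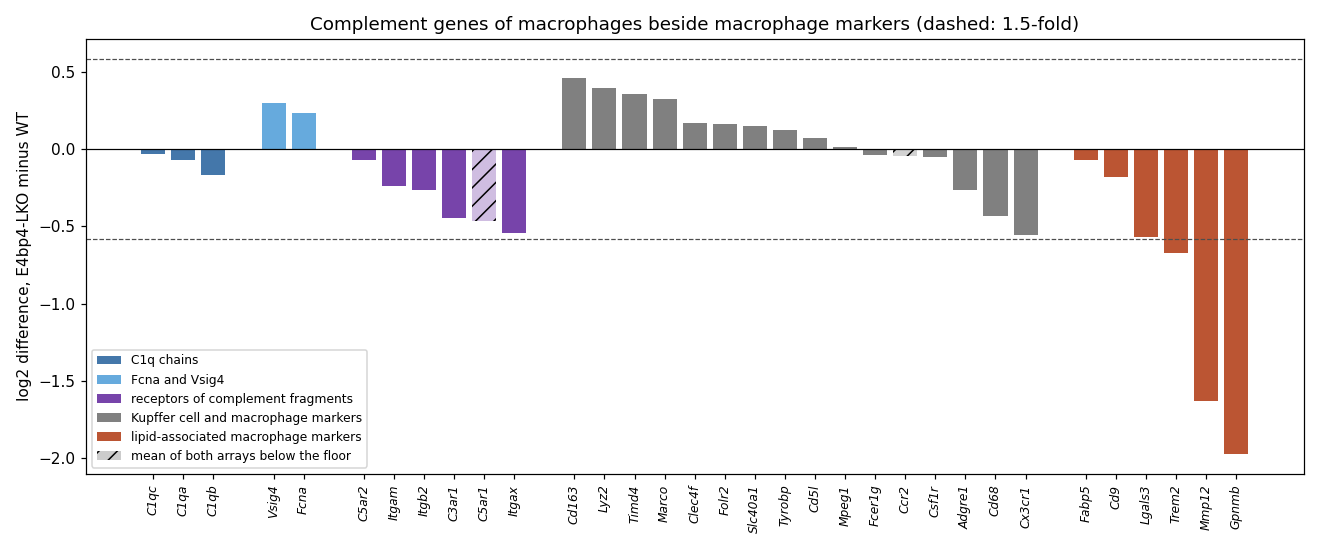
Log2 difference, E4bp4-LKO minus WT, of complement genes of macrophages (C1q chains, Fcna and Vsig4, receptors) beside Kupffer cell and macrophage markers and lipid-associated macrophage markers. Hatched bars have a mean below the floor, and dashed lines mark 1.5-fold. The C1q bars are near 0, those of C3ar1, C5ar1 and Itgax lie between -0.54 and -0.45, and Gpnmb and Mmp12 reach -1.98 and -1.63. The E4bp4-LKO value of Gpnmb is below the floor.

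Among the genes of the central steps, C4a stood at the top of the list. It had 5.81 on the E4bp4-LKO array and 4.15 on the WT array. The difference was 1.66 or 3.16-fold, but its size is uncertain because the WT value did not reach the floor. C4a encodes the protein known in mice as sex-limited protein (Slp), a close relative of C4 that is produced in males of some strains. RefSeq annotates it as a transcribed pseudogene in assembly GRCm38.p6, the genome of C57BL/6J mice.

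C4b, the gene of C4 itself, which forms part of the C3 convertase of the classical and lectin pathways, had 10.07 in E4bp4-LKO and 10.26 in WT, a difference of -0.19. C4a and C4b are near-identical copies, so their probe sets may share signal and each value is uncertain alone. The signs of the copies were opposite on these arrays, but the C4b difference was smaller in size than the disagreement between probe sets. C2, the protease that joins C4 in that convertase, had 7.95 in E4bp4-LKO and 7.72 in WT. Cfb, factor B, the corresponding protease of the alternative pathway, had 10.74 in E4bp4-LKO and 10.62 in WT. Cfp, properdin, which stabilises the alternative convertase and comes from leukocytes, had 7.70 in E4bp4-LKO and 7.68 in WT. These 4 genes thus differed by 0.24 at most.

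The genes around C4a did not share its difference. C4b, C4a, Cfb and C2 lie in the class III region of the major histocompatibility complex on chromosome 17, with 1 protein-coding gene between C4b and C4a and 4 between C4a and Cfb. Of the 5 nearest genes on either side, the 9 above the floor differed by between -0.26 and 0.22. Cyp21a1, the steroid 21-hydroxylase gene between C4b and C4a, had 3.69 in E4bp4-LKO and 4.51 in WT, a difference of -0.82, with a mean below the floor.

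**Figure D3:**
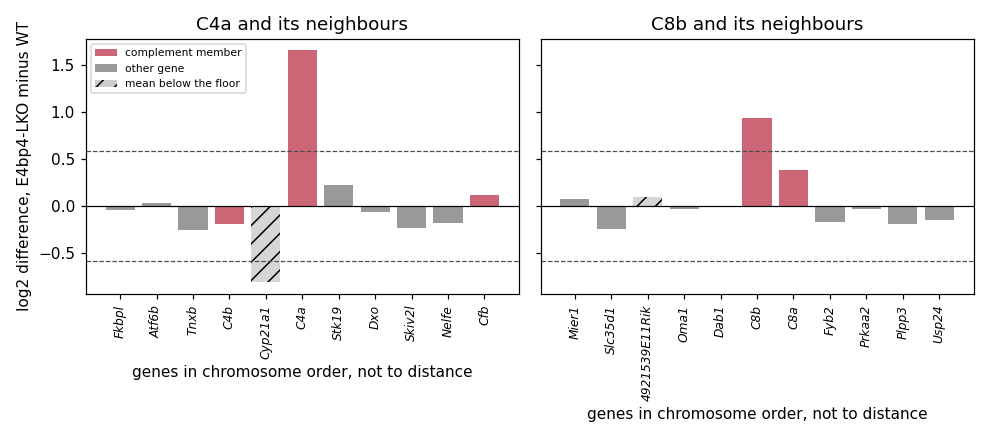
Log2 difference, E4bp4-LKO minus WT, of C4a (left) and C8b (right) and the 5 genes on either side of each in chromosome order. Bars of complement members are red and hatched bars have a mean below the floor. C4a (1.66) and C8b (0.93) stand alone past the upper dashed 1.5-fold line, and C8a (0.38), the neighbour of C8b, is the next above 0.

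The genes of the terminal pathway were the role group with the highest median, 0.32 over 7 members, of which 6 were above 0. C8, which inserts the growing complex into the membrane, consists of an alpha, a beta and a gamma chain. C8b, the beta chain gene, had 10.18 in E4bp4-LKO and 9.25 in WT, a difference of 0.93 or 1.91-fold, at rank 53 of the 11090 genes. Both values were well above the floor. C8b also lay outside the central 95% of the 5545 genes above the 75th percentile of expression, which ran from -0.43 to 0.48.

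The other chains of C8 and C9 were higher by less. C8a, the alpha chain gene, had 10.36 in E4bp4-LKO and 9.98 in WT, a difference of 0.38. C8g, the gamma chain gene, a lipocalin, had 10.16 in E4bp4-LKO and 9.83 in WT, a difference of 0.32. C9, which polymerises into the pore, had 10.46 in E4bp4-LKO and 10.13 in WT, a difference of 0.33. These 3 differences, of 1.25 to 1.30-fold, were within the central 95% of all genes, and between 11.0% and 16.2% of genes above the floor differed by as much in either direction.

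The earlier terminal components differed hardly at all. Hc, the mouse gene of C5, had 10.93 in E4bp4-LKO and 10.96 in WT. C6 had 8.68 in E4bp4-LKO and 8.56 in WT. C7 had 5.88 in E4bp4-LKO and 5.78 in WT. C6 and C7, which bind C5b before C8 does, were thus 0.12 and 0.10 higher. The C7 difference was smaller in size than the disagreement between probe sets. C7 is also made by mesenchymal cells, and the 10 stellate cell and fibroblast markers were all lower in E4bp4-LKO, with a median of -0.57. A difference above 0 was seen for 45.5% of all genes above the floor.

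C8b and C8a are neighbours on chromosome 4, with no protein-coding gene between them, while C8g lies on chromosome 2 and C9 on chromosome 15. Of the 5 nearest genes on either side of C8b, the 8 above the floor differed by between -0.25 and 0.38, and C8a had the highest of these values. Without the C8 chains and C9, a split chosen after their values were seen, the other 24 members above the floor had a median of 0.05, with 14 above 0.

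**Figure D4:**
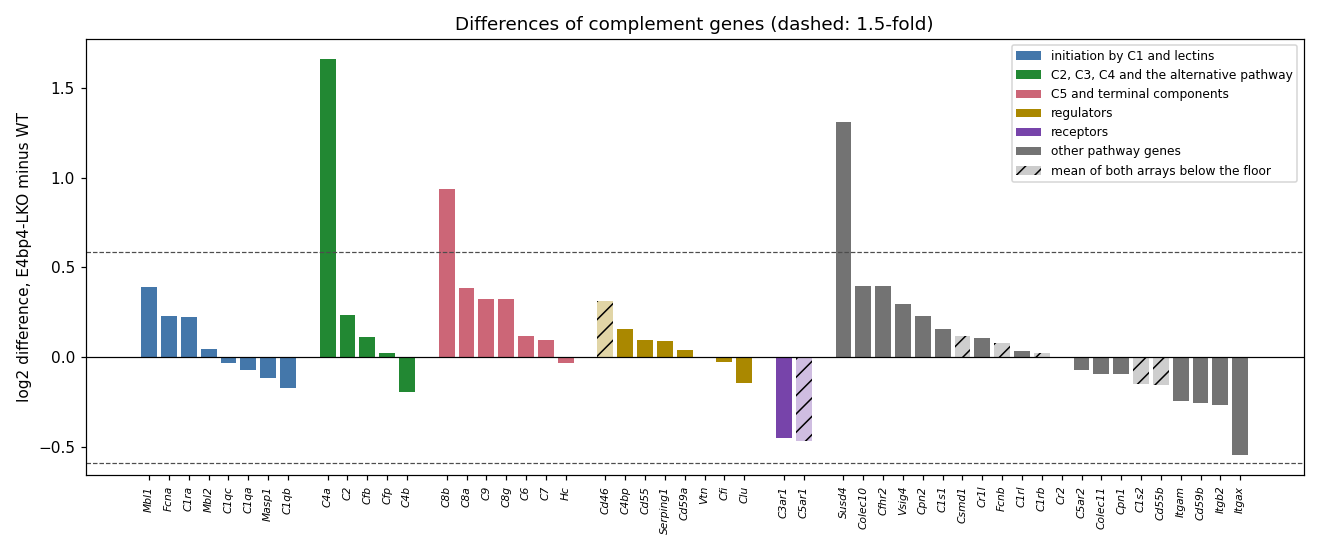
Log2 difference, E4bp4-LKO minus WT, of the 30 measured members by role and of the 21 measured other complement pathway genes. Hatched bars have a mean below the floor, and dashed lines mark 1.5-fold. C4a (1.66), C8b (0.93) and Susd4 (1.31) are the bars past the upper line, and no bar passes the lower one.

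The promoters of the C8 and C9 genes are shown because C8b was past 1.5-fold and the other 3 belong to the same assembly step, and because E4BP4 binds a known element, the D-box. This set was chosen after its values were seen, and Mbl1, which is not in it, differed by as much as C8a, C8g and C9. The sequences are the 250 bases before each annotated start, 5′ to 3′ on the strand of the gene, from RefSeq on GRCm38.p6. C8g has 2 annotated starts. Capitals mark a match to one of 3 motifs searched on both strands: the D-box (TTATGTAA or TTACGTAA), the STAT5 word TTCNNNGAA and the C/EBP word TTGCGCAA.
C8b, chr4:104766067-104766316, plus strand: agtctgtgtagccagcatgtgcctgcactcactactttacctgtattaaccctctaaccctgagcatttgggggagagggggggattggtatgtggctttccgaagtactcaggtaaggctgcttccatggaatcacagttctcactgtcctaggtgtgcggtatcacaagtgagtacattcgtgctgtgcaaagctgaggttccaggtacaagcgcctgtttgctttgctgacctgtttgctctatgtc
C8a, chr4:104876399-104876648, minus strand: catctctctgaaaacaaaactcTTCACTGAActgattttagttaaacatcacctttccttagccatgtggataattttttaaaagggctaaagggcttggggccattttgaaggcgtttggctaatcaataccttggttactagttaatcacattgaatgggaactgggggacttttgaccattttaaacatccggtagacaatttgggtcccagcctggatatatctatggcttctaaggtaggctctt
C8g, start 1, chr2:25501720-25501969, minus strand: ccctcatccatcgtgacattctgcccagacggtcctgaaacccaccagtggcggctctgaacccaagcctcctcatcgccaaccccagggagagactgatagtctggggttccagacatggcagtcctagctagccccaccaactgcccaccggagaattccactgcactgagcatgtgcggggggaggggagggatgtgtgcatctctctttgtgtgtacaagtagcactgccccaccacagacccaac
C8g, start 2, chr2:25500507-25500756, minus strand: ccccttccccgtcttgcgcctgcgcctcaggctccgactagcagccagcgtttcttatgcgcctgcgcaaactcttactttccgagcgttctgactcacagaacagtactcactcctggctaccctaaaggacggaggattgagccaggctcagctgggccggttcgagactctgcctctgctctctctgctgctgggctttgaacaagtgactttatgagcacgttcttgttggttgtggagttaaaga
C9, chr15:6445096-6445345, plus strand: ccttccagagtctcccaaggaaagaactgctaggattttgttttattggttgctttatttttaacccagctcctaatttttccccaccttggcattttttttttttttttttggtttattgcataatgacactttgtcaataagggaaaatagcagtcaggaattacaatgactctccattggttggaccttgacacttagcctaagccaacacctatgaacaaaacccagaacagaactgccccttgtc

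The single match in these stretches was the STAT5 word TTCACTGAA in C8a, whose first base lies 228 bases before the start. RefSeq windows of 250 bases before to 50 after the start were found for 24 of the 33 members, 1 window per gene being read, and not for C1qa, C2, C4a, C4b, Cfb, Cfi, Masp1, Serping1 and Clu. The D-box words were in none of the 24, and in 1.06% of the windows of all 27025 genes. The STAT5 word was in 5 of the 24 (C8a, C7, Masp2, C1ra and Vtn), and in 8.47% of all. The C/EBP word was in none of the 24, and in 0.185% of all. A match describes letters only, and a window without one says nothing about binding by the factor.

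The regulators differed least. Of the 8, 7 were above the floor and their differences ran from -0.14 to 0.16, with a median of 0.04. C4bp, the C4b-binding protein that breaks up the classical convertase, had 11.14 in E4bp4-LKO and 10.99 in WT. Serping1, the C1 inhibitor, had 11.05 in E4bp4-LKO and 10.96 in WT. Cfi, factor I, the protease that inactivates C3b and C4b, had 11.08 in E4bp4-LKO and 11.10 in WT. None of these 3 soluble regulators moved by as much as the disagreement between probe sets.

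Vtn (vitronectin) and Clu (clusterin) bind the nascent membrane attack complex in plasma. Vtn had 11.72 on each array. Clu had 10.45 in E4bp4-LKO and 10.59 in WT, the lowest difference of the group. They were thus not higher with the C8 chains and C9.

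Among the regulators on cell membranes, Cd55, which accelerates the decay of convertases, had 6.88 in E4bp4-LKO and 6.79 in WT. Cd59a, which blocks the pore at the step of C9, had 10.04 in E4bp4-LKO and 10.00 in WT. Its paralog Cd59b, outside the list, had 6.25 in E4bp4-LKO and 6.50 in WT. Cd46, a cofactor of factor I with narrow expression in mice, did not reach the floor on either array, with 3.83 in E4bp4-LKO and 3.52 in WT.

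By source, the 18 measured hepatocyte components had a median difference of 0.12, with 12 above 0 and 6 below, and C8b was the only one past 1.5-fold. The general hepatocyte markers had a median of 0.08, with 6 of 11 above 0 and 1, Foxa3 (0.63), past 1.5-fold. The median of the macrophage C1q chains was -0.07. Acute phase genes outside complement, which hepatocytes raise in inflammation, had a median of 0.05 over 21 genes. Of these, Saa3 (0.89) and Saa2 (0.83) were at least 1.5-fold higher and none was lower by as much. The background for the counts in this paragraph is 1.51% of all genes passing that threshold upwards and 2.06% downwards. Both shares refer to genes that reached the floor.

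**Figure D5:**
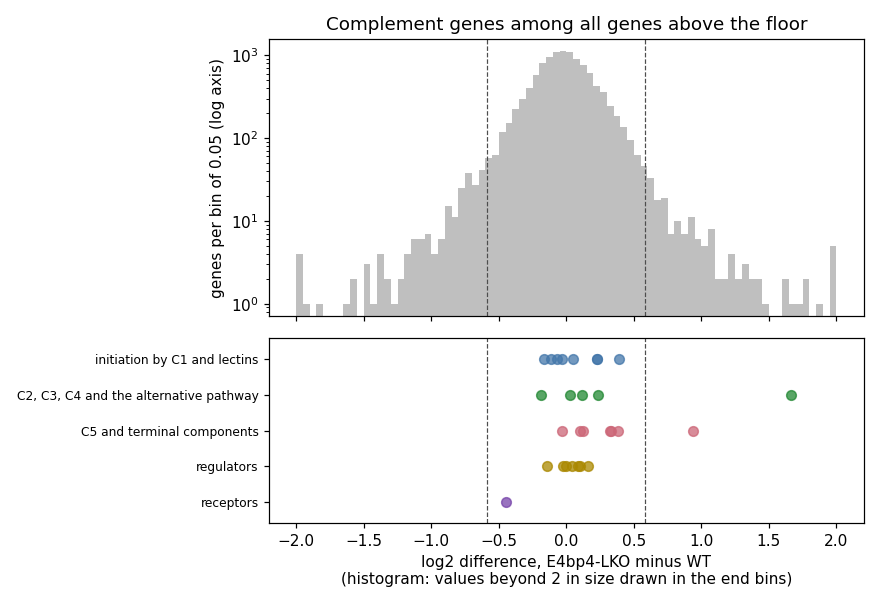
Log2 difference, E4bp4-LKO minus WT, of all 11090 genes above the floor (histogram with a log axis of genes per bin) and of the 28 complement members above it, by role (points). Dashed lines mark 1.5-fold. Most members lie under the peak of the histogram, and C4a and C8b are the points beyond the upper line.

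A list of 24 other pathway genes was read in the same way, and 21 were measured, 15 of them above the floor. Past 1.5-fold and higher in E4bp4-LKO was 1 gene, against 1.51% of all genes above the floor. None was lower by as much, against 2.06%. The higher gene was Susd4, a membrane protein with sushi domains that restrains complement activation. Susd4 had 7.26 in E4bp4-LKO and 5.95 in WT, a difference of 1.31 or 2.48-fold. Susd4 is also on a list of male-biased mouse liver genes, of which 13 passed the floor. A 1.5-fold higher value in E4bp4-LKO was seen for 7 of the 13, Susd4 among them, against 1.51% of all genes above the floor. A 1.5-fold lower one was seen for none, against 2.06%. Hsd3b5, also among the 7, passed the floor only through its E4bp4-LKO value. This pattern was already known when the lists were written. The labels give males for both pools.

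The remaining pathway genes differed by less than 1.5-fold. Colec10, a collectin that works with the lectin pathway proteases, had 7.71 in E4bp4-LKO and 7.32 in WT, a difference of 0.40. Its partner Colec11 had 6.88 in E4bp4-LKO and 6.97 in WT. Cfhr2, a factor H-related gene, had 8.78 in E4bp4-LKO and 8.38 in WT, also 0.40 apart. C1s1, the protease that C1r activates, had 5.72 in E4bp4-LKO and 5.56 in WT. The carboxypeptidase N genes Cpn1 and Cpn2, whose product trims anaphylatoxins, differed by -0.09 and 0.23. The median of the 15 was 0.03, against -0.02 for all genes above the floor.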

How the data were processed

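Liver RNA pooled by genotype was hybridised to 1 Affymetrix whole-transcript array each for E4bp4-LKO and WT. The authors deposited log2 intensities, 1 per probe set and array, and per the submitters' processing notes the tools were RMA and R 3.4.0. RMA corrects background, equalises distributions by quantiles and summarises probes, and it pulls differences of dim genes towards 0. The arrays' medians were 3.75 (E4bp4-LKO) and 3.74 (WT), and no gene-wise centring was visible. Detection calls were not used here, so the floor stands in for background.

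Of 41345 probe sets, 23521 had 1 gene symbol, 1814 several and 16010 none. The platform annotation gave the symbols, and all 52 probe sets of the complement lists kept theirs when matched by Entrez identifier to the RefSeq table of GRCm38.p6. Probe sets of a gene were averaged, and WT was subtracted from E4bp4-LKO (Python 3.11.15, pandas 2.3.3). No test was possible. The calculation was checked on simulated data with less noise than the disagreement between probe sets. That check covers the arithmetic only, not the reliability of any difference. The members, lists, motifs and alternatives were chosen with earlier results of these data known. Named are all members, Nfil3, other pathway genes past 1.5-fold or among the 6 with the largest difference, at most 4 genes of each other list by size or past 1.5-fold, and markers that define a cell type. Neighbouring genes and the other pathway genes C5ar2, Itgam, Cd59b, Colec11, C1s1, Cpn1 and Cpn2 fall outside this rule and were singled out after their values were seen. The same holds for the squamous epithelium marker Krtdap. Alternatives were a higher floor, no floor, the probe set with the highest mean, probe sets with several symbols, removal of the intensity trend (running median over 501 genes) and thresholds of 1.2-fold and 2-fold.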

Additional observations from a re-analysis of the deposited data

How the results depend on the processing

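The members at least 1.5-fold higher numbered 2, and they remained 2 in number without a floor, with the probe set of the highest mean, with probe sets of several symbols and after removal of the intensity trend. With a floor at the 75th percentile the number was 1, since the mean of C4a lies below that floor. At 2-fold it was 1 (C4a). At 1.2-fold 6 members were higher and 1 lower. Of the other pathway genes, 4 were higher and 1 lower at 1.2-fold. Of all genes above the floor, 10.6% were higher and 12.7% lower at 1.2-fold. The share of all genes past the threshold was 23.3% at 1.2-fold and 0.794% at 2-fold. Medians of the members and of each role group moved by less than the probe set disagreement of 0.22 under each alternative that gave a value. The receptor group has no value with the higher floor, since both receptors lie below it. Removal of the trend moved no member by more than 0.07 and changed the sign of Vtn alone. No paired analysis was possible because there is 1 array per genotype. Without replicates, the variation between mice is unknown, and values near the floor have uncertain sizes.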

Other observations

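Genes next to C8g, C9 and Mbl1 were read as well. The 6 genes above the floor around C8g ranged from -0.44 (Lcn12, a lipocalin gene) to 0.72 (Paxx, a DNA repair gene whose WT value lay below the floor). The 6 around C9 ranged from -0.44 (Osmr, a receptor chain for oncostatin M) to 0.27 (Lifr, the receptor of leukaemia inhibitory factor). The 3 around Mbl1 ranged from -0.13 to 0.05. None of these sets shared the direction of its complement gene throughout. These neighbours were chosen after the values of C8g, C9 and Mbl1 had been seen.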
